A study of Mus musculus with 11 samples.

Results

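Imprinted genes are transcribed mainly from 1 parental copy, and many of them act on growth before birth. Igf2 encodes a fetal growth factor that signals through the receptors encoded by Igf1r and Insr and is cleared by the receptor encoded by Igf2r. Peg3 encodes a zinc finger protein and is expressed from the paternal copy. The 10 genes described here are Igf2, H19, Peg3, Igf2r, Mest, Peg10, Grb10, Plagl1, Cdkn1c and Impact. They were listed by name, and Igf2 and Peg3 were selected on their deposited values in the 4C11+ line, where both were lost. The levels of these 2 genes in 4C11+ are therefore described below without a test. A loss presupposes RNA in some other line, so their tests among the other lines are not independent of the selection either. Of the 10 genes, 7 had a value among the 14272 genes of the deposited tables. H19, the noncoding RNA next to Igf2, Cdkn1c, a cyclin-dependent kinase inhibitor, and Grb10, an adaptor of insulin-type receptors, had no value and are not analysed here.

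The RNA came from cultures of 4 mouse cell lines that form a model of melanoma progression. The line melan-a consists of spontaneously immortalized nonmalignant melanocytes and was the only line kept in 200 nM PMA, a phorbol ester. The lines 4C (pre-malignant, mesenchymal-like), 4C11- (melanoma without metastasis, mesenchymal-like) and 4C11+ (metastatic melanoma, epithelial) all descend from melan-a through repeated blocking of anchorage and grew without PMA. Each stage is represented by 1 line, so that n counts cultures and p values measure the spread between cultures only. The 11 libraries comprised 2 from melan-a, namely replicates 2 and 3, and 3 from every other line. The presence of PMA and the melan-a line cannot be told apart in any comparison with melan-a. In mixed RNA of a culture, fewer cells that express a gene and less RNA per cell cannot be told apart either, and parental copies are not resolved by these values.

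Values are log2 CPM as deposited, nominally the logarithm of reads scaled to a common library total. All 11 libraries share 1 highest value, as after quantile normalization, so the values are not a plain scaling of reads. A nominal depth computed from the steps of single reads was 3.50 to 7.42 M reads per library. It is not a reliable depth on this scale. For example, 4C replicate 3 at 5.67 M and 4C11- replicate 2 at 7.42 M had the same value at 0 reads, -3.44. The value at 3 reads was a log2 CPM between -2.01 and 0.15. A line was treated as without detectable RNA of a gene when none of its libraries exceeded 3 reads, and a difference from it is then given as a bound. Within a line the Pearson correlation across genes was lowest for 4C11- replicate 1, with a median of 0.906 to the other libraries of its line, and for the 2 melan-a libraries, at 0.907. The summed CPM of 9 melanocyte markers was 1965 and 9185 in melan-a and 11301 to 13597 in 4C11+, but 3.94 to 8.62 in 4C and 4.27 to 12.8 in 4C11-. Tyr, which encodes tyrosinase, had at most 3 reads in each library of 4C and 4C11-, as had Sox10 in 4C and Kit in 4C11-, so that these lines lacked defining markers of the labelled cell type. The summed CPM of the 4 fibroblast markers with a value was 2307 to 2630 in 4C and 1968 to 2230 in 4C11-, against 19.8 and 206 in melan-a and 25.8 to 45.0 in 4C11+. The other 3 of the 7 listed, Col1a2, Lum and Thy1, had no value. The part of these marker shifts in the differences between lines below was not tested. The 2 keratinocyte markers with a value summed to 5.11 CPM or less and the 3 leukocyte markers to 7.64 to 96.8 CPM over all libraries. Cdh5, the 1 of 4 endothelial markers with a value, was at 92.9 to 172 CPM in 4C11- and at 16.1 CPM or less in the other lines. Pecam1, Kdr and Tek had no value. Among the other lists, Ednrb (melanocyte), Krt5, Krt14, Krt1, Trp63 and Dsg3 (keratinocyte) and Ptprc, Adgre1 and Aif1 (leukocyte) had none either.

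Igf2 lies on chromosome 7 at chr7:142650766-142666816 and Peg3 at chr7:6703892-6730431, both on the minus strand of GRCm38. The start of Peg3 lies 147 bases from that of Usp29, a paternally expressed gene for a ubiquitin protease, and the genes are transcribed away from each other. The stretch between them is shown because these 2 neighbours were both without detectable RNA in 4C11+. The stretch of Igf2 precedes the most downstream of its 4 RefSeq starts and lies in an intron of longer transcripts, and that of Plagl1, which encodes a zinc finger transcription factor, is shown for contrast because its RNA was higher in 4C11+ than in 4C11-. It also lies in an intron of longer transcripts, on chromosome 10. No base shown belongs to an annotated exon. The sequences are from RefSeq on GRCm38.p6, written 5′ to 3′ on the strand given, with CpG dinucleotides, the sites of DNA methylation in mammals, in capitals.
Peg3-Usp29 (chr7:6730432-6730577, plus strand): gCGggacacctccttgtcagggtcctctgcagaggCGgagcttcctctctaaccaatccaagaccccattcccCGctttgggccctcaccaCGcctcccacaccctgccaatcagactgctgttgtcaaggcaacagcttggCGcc
Igf2 (chr7:142657497-142657746, minus strand): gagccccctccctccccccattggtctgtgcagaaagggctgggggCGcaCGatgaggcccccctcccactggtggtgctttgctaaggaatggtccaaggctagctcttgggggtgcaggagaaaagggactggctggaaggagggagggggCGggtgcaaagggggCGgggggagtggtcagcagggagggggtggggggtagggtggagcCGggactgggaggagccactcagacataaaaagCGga
Plagl1 (chr10:13090582-13090690, plus strand): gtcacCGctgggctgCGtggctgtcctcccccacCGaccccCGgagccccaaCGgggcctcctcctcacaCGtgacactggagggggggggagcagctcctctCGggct

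The stretch between Peg3 and Usp29 held 5 CpG in 146 bases, that of Igf2 held 6 in 250 and that of Plagl1 held 7 in 109. Windows of 300 bases around the start were present for 6 of the 10 genes in the RefSeq table. The Peg3 window held 13 CpG, and 37.9% of the 32851 windows of all genes held as many. The 4 Igf2 windows held 2, 7, 14 and 24 CpG, and the Plagl1 window held 26, a count reached by 16.9% of all windows. The letters CCAAT, on either strand, occurred 2 times between Peg3 and Usp29, and 37.4% of all windows held at least 1. The palindrome TGACGTCA, the site of CREB-type factors, occurred in the Peg3 window and in the overlapping Usp29 window but outside the stretch shown, and 1.79% of all windows held it. GGGCGG, a GC box, occurred 2 times in the Igf2 stretch and in 35.7% of all windows. TATAAA and GCCATNTT, the last an element bound by YY1, were not found in the windows of these genes, and 13.6% and 6.05% of all windows held them. No methylation or binding was measured, and a match of letters is only a description.

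Igf2 RNA rose over the first 2 steps of the model. The log2 CPM was 0.87 and -0.24 in melan-a, from 7 and 4 reads. It was 4.38, 3.83 and 4.77 in 4C and 8.72, 8.83 and 8.50 in 4C11-. In 4C11+ it was -2.44, -0.70 and -1.16, from at most 1 read per library. The libraries of the 4 lines did not overlap, with the order 4C11-, 4C, melan-a and 4C11+. The mean of 8.68 ± 0.17 (SD, n = 3) placed Igf2 at the 97.8th percentile of all genes in 4C11-, and the mean of 0.32 ± 0.78 (SD, n = 2) at the 11.9th in melan-a. Igf2 was 16.1-fold higher in 4C than in melan-a, a log2 difference of 4.01 with an SE of 0.53 and an adjusted p of 0.000281. It was again 20.5-fold higher in 4C11- than in 4C, with a log2 difference of 4.36, an SE of 0.47 and an adjusted p of 0.000671. Both calls were retained in each leave-one-library-out fit. Among the markers of other cell types, Cdh5 followed the same order of line means, with log2 CPM of 6.90 in 4C11-, 1.25 in 4C, -2.29 in melan-a and -2.49 in 4C11+, and was also higher in 4C11- than in 4C (log2 difference 5.65, SE 0.97, adjusted p = 0.0135). The 4 fibroblast markers with a value were all higher in 4C than in melan-a by their means. In 4C11- against 4C their log2 differences were 0.53 for Pdgfra, 0.013 for Col3a1, -0.31 for Col1a1 and -0.67 for Pdgfrb, with adjusted p of 0.624 or above. The part of these markers in the course of Igf2 was not tested.

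The loss of Igf2 in 4C11+ is a description, since it chose the gene. Relative to the value at 3 reads, Igf2 was at least 404-fold lower in 4C11+ than in 4C11-, which is a log2 difference of -8.66. Relative to melan-a the bound was only 1.22-fold, since melan-a held 4 and 7 reads of Igf2. A low level of Igf2 was thus shared by the 2 epithelial lines, and their libraries lay within a few reads of the limit of detection.

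Peg3 had another course, with high levels in melan-a. Its log2 CPM was 8.14 and 7.49 in melan-a, and 6.49, 4.92 and 5.90 in 4C. In 4C11- it was 7.05, 8.87 and 9.17, with replicate 1 lowest. In 4C11+ it was -2.44, -2.44 and -1.16, from at most 1 read per library. The melan-a and 4C11- libraries overlapped, the 4C libraries lay below both, and the 4C11+ libraries lay far below all others. The difference of 4C from melan-a was -2.05 on the log2 scale (SE 0.66, adjusted p = 0.0576), and that of 4C11- from 4C was 2.60 (SE 0.59, adjusted p = 0.0521). Neither passed the threshold of 0.05. Without 4C11- replicate 1, the library that stood apart, both did, with adjusted p = 0.0156 and adjusted p = 0.00803. That library does not enter the first difference, which stayed at -2.05, so only the estimated spread changed there. The second difference became 3.25. With 1 library left out, the first difference ranged from -2.41 to -1.62 and the second from 2.17 to 3.255. Over all alternatives the adjusted p of the second difference reached 0.223. As a description, Peg3 was at least 324-fold lower in 4C11+ than in 4C11- and at least 222-fold lower than in melan-a. The 2 epithelial lines therefore differed in Peg3, which was at the 94.5th percentile of all genes in melan-a.

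**Figure D1:**
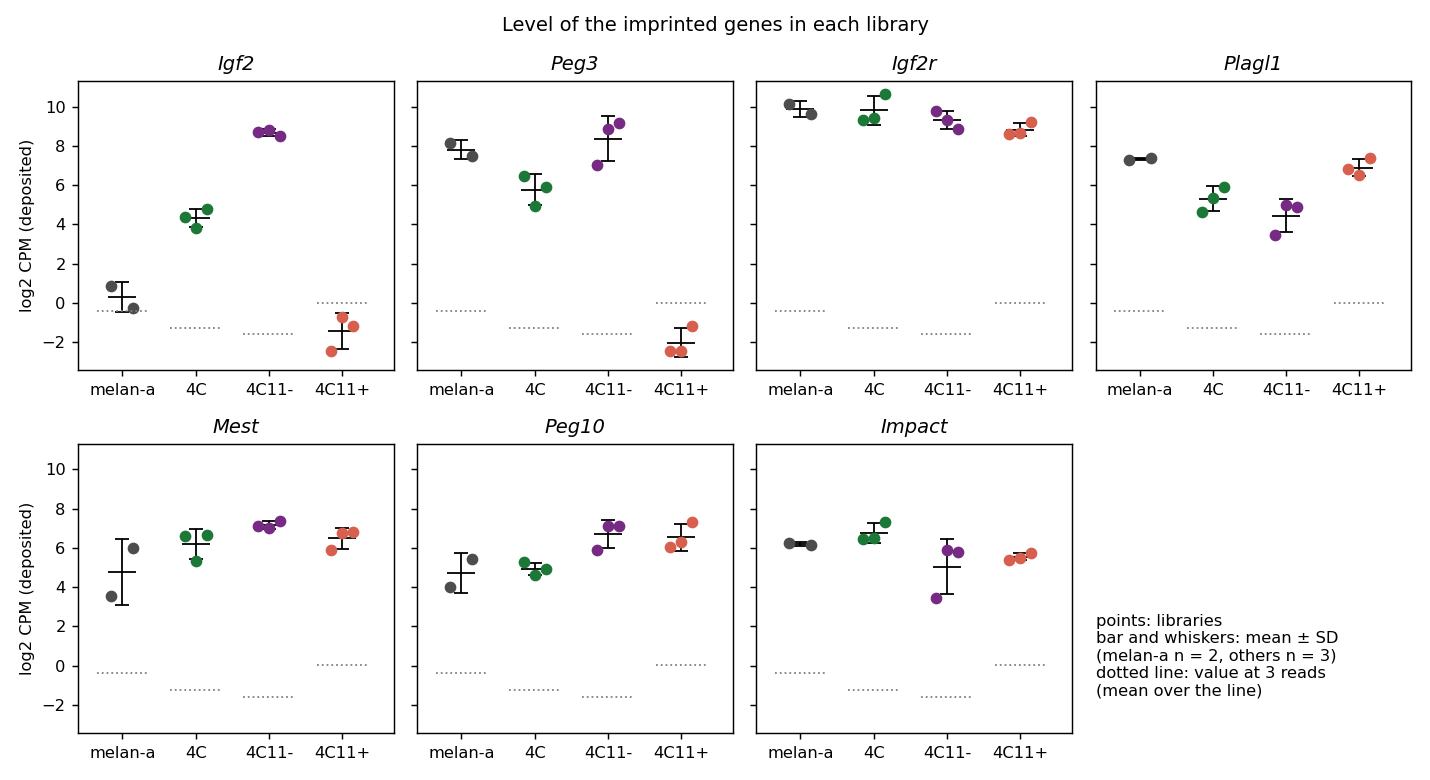
Deposited log2 CPM of the 7 imprinted genes with a value, by cell line. Points are libraries, the bar and whiskers are the mean ± SD (n = 2 for melan-a, n = 3 for the others), and the dotted line is the value at 3 reads averaged over the line. Igf2 rises from 0.32 to 8.68 between melan-a and 4C11-, and Igf2 and Peg3 alone lie below the dotted line in 4C11+.

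Igf2r, which carries IGF2 and mannose 6-phosphate proteins to the lysosome, is at chr17:12682406-12769664 and was abundant in all lines. The log2 CPM was 10.16 and 9.60 in melan-a, and 9.34, 9.44 and 10.64 in 4C. It was 9.80, 9.34 and 8.88 in 4C11-, and 8.62, 8.63 and 9.20 in 4C11+. The order of the means was melan-a, 4C, 4C11- and 4C11+, and each line overlapped its neighbour in that order. Against the mean of the other lines, Igf2r was lower in 4C11+, with a log2 difference of -0.86 (SE 0.30, adjusted p = 0.0436). That call was lost with 1 library left out in 5 of 11 fits, for example at an adjusted p of 0.171 without 4C11+ replicate 1. The gene bodies of Igf2r and of the antisense RNA Airn overlap by 28354 bases, introns included. The strand setting of the read counting is not given in the sources used here. Reads in any exon bases shared by both genes can therefore not be separated, and the number of such bases was not determined. Airn itself was low, with line means from 1.34 to 2.98 log2 CPM.

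RNA levels of different genes can be compared roughly per kilobase of exon, with the exons of all annotated transcripts of a gene joined. On this scale Igf2 in 4C11- reached 6.17 log2 CPM per kb and stood beside Igf2r at 6.12. In 4C the values were 1.81 for Igf2 and 6.59 for Igf2r, so RNA of the clearance receptor was far above that of the ligand. These values give no protein levels. In 4C11+ Igf2r remained at 5.60 log2 CPM per kb, without detectable Igf2 RNA. Mest followed at 4.51, Plagl1 at 3.93, Peg10 at 3.81 and Impact at 3.19 in this line. In 4C11-, Mest was at 5.18, Peg3 at 4.63, Peg10 at 3.97, Impact at 2.69 and Plagl1 at 1.48.

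Plagl1, also known as Zac1, is at chr10:13060504-13131694 and was high in the epithelial lines and low in the mesenchymal-like lines. The log2 CPM was 7.30 and 7.39 in melan-a, and 6.82, 6.50 and 7.37 in 4C11+. It was 4.64, 5.35 and 5.93 in 4C, and 3.48, 4.99 and 4.87 in 4C11-. No library of the mesenchymal-like lines reached the lowest library of the epithelial lines. The difference of the mesenchymal-like from the epithelial lines was -2.25 (SE 0.32, adjusted p = 0.000245), which is a 4.74-fold lower level. Plagl1 was 4.12-fold lower in 4C than in melan-a (SE 0.48 on the log2 scale, adjusted p = 0.0134). It was 5.47-fold higher in 4C11+ than in 4C11- (SE 0.43 on the log2 scale, adjusted p = 0.00122). The call against melan-a was lost without either melan-a replicate, at adjusted p = 0.0537 without replicate 2 and adjusted p = 0.0632 without replicate 3. Across the 11 libraries the Pearson r between Plagl1 and Igf2 was -0.87, and after subtraction of the line means it was 0.02, so the inverse relation describes 4 lines and not the spread within them.

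Mest encodes a protein of the alpha/beta hydrolase fold and Peg10 one derived from a retrotransposon, both from the paternal copy and both on chromosome 6, at chr6:30723547-30748465 and chr6:4747306-4760517. Mest was at 3.57 and 5.97 log2 CPM in melan-a, and at 6.59, 5.32 and 6.67 in 4C. It was at 7.10, 6.99 and 7.39 in 4C11-, and at 5.88, 6.76 and 6.83 in 4C11+. The 2 melan-a libraries differed by more than the means of any pair of the other lines, and no difference of Mest passed the threshold. Against melan-a it reached an adjusted p of 0.155 in 4C and 0.0801 in 4C11+. With 1 library left out, these log2 differences ranged from 0.22 to 2.62 and from 0.52 to 2.92. The largest values came without melan-a replicate 3, a fit with 1 melan-a library, so they depended on which melan-a library was kept.

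Peg10 was at 4.00 and 5.45 log2 CPM in melan-a, and at 5.26, 4.61 and 4.91 in 4C. It was at 5.89, 7.11 and 7.12 in 4C11-, and at 6.04, 6.28 and 7.32 in 4C11+. The libraries of both tumorigenic lines lay above those of melan-a and 4C. Peg10 was 3.54-fold higher in 4C11+ than in melan-a (SE 0.52 on the log2 scale, adjusted p = 0.035), a call that was lost in 5 of 11 fits with 1 library left out, with an adjusted p of 0.291 without melan-a replicate 2. In 4C11- against 4C the log2 difference was 1.78 (SE 0.47, adjusted p = 0.0894), and without 4C11- replicate 1 it was 2.19 (adjusted p = 0.0424). Leaving out another library lowered it to 1.575 at the least, and its adjusted p reached 0.312 over all alternatives. Against the mean of the other lines Peg10 was 1.10 higher in 4C11+ (SE 0.39, adjusted p = 0.0479). This call was lost in 8 of 11 fits, with adjusted p = 0.218 without 4C11+ replicate 3.

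Impact, which encodes an inhibitor of the amino acid sensor kinase GCN2, is on chromosome 18 at chr18:12955852-12992950. Its log2 CPM was 6.27 and 6.14 in melan-a, and 6.47, 6.49 and 7.34 in 4C. It was 3.44, 5.89 and 5.81 in 4C11-, with replicate 1 lowest, and 5.41, 5.51 and 5.73 in 4C11+. The libraries of 4C lay above those of all other lines. In the fits with all libraries Impact passed the threshold in 0 of 6 comparisons, and it had an unadjusted p under 0.05 in 1 of them, 4C11- against 4C (log2 difference -1.72, SE 0.54, adjusted p = 0.159). That difference shrank to -0.92 without 4C11- replicate 1. Without the same library, Impact was lower in 4C11+ than the mean of the other lines (log2 difference -0.72, adjusted p = 0.0194), where the fit with all libraries gave -0.46. With 1 library left out this difference ranged from -0.72 to -0.31, and its adjusted p reached 0.665 over all alternatives.

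Counted together, 2 of the 7 genes with a value changed between melan-a and 4C, where 15.2% of all genes did. The libraries of the 2 lines did not overlap for 4 of the 7 genes and for 42.1% of all genes. Between 4C and 4C11-, 1 of 7 changed, and 1.67% of all genes did. Igf2 was among the changed genes at both steps, and its selection presupposed RNA in a line other than 4C11+. These counts over 7 genes are thus not independent of the selection. No overlap between 4C and 4C11- was found for 5 of 7 genes, among them Mest and Peg10, and for 19.3% of all genes. Of the 5 genes other than Igf2 and Peg3, 1 changed between 4C11- and 4C11+, with 31.1% of all genes, and 2 did not overlap, with 47% of all genes. Between melan-a and 4C11+ 1 of 5 changed, with 15.9% of all genes, and 3 did not overlap, with 46.6% of all genes. Between the phenotypes Plagl1 was the 1 of 5 that changed, with 29.7% of all genes, and the 1 without overlap, with 13.9%. Against the mean of the other lines, 3 of 5 changed in 4C11+, where 34% of all genes did, and 0 of 5 were free of overlap, where 20.6% of all genes were. The median log2 difference in 4C11- against 4C was 0.97 for the 7 genes, -0.47 for the 5 genes other than Igf2 and Peg3 and 0.0051 for all genes, so that its sign depended on those 2 genes. In 4C against melan-a it was 0.20 for the 7 genes and for the 5, and -0.058 for all genes. For the 5 genes it was -0.16 in 4C11+ against 4C11-, -0.45 in 4C11+ against melan-a, 0.18 between the phenotypes and 0.45 in 4C11+ against the mean of the other lines. The medians of all genes in these comparisons were 0.12, 0.025, -0.090 and 0.079. The comparisons share libraries and are not separate evidence. With the exception of Igf2 in the first 2 steps and Plagl1 between 4C11- and 4C11+ and between the phenotypes, each call on a member depended on at least 1 library.

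**Figure D2:**
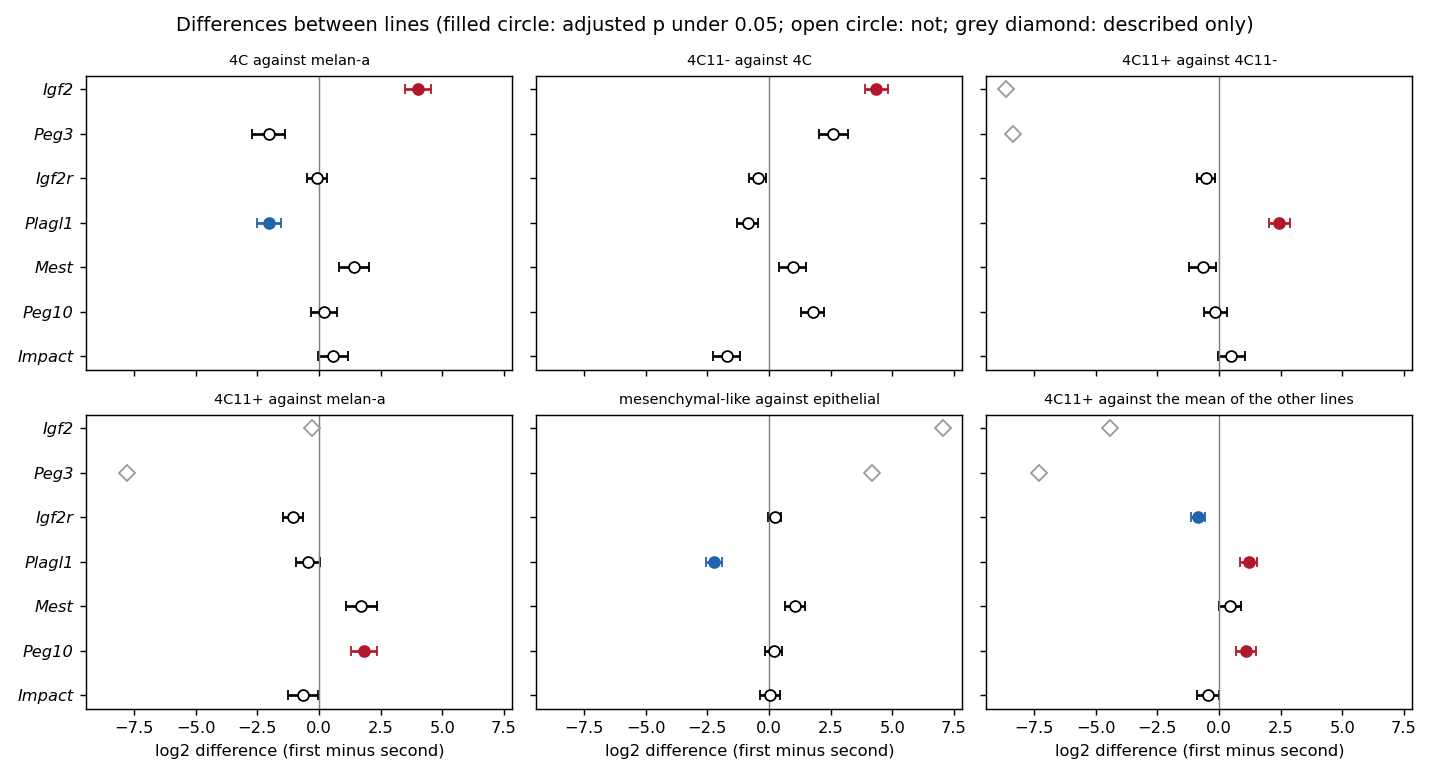
Log2 differences of the 7 imprinted genes in 6 comparisons of lines, the first line of each title minus the second. Circles with whiskers are limma estimates ± SE, filled and coloured where the adjusted p was under 0.05. Grey diamonds are described only. They use the value at 3 reads where 4C11+ alone is the first side. In the mesenchymal-like against epithelial panel they use the deposited values, at 7.06 for Igf2 and 4.16 for Peg3, and are no bounds. Igf2 lies at 4.01 and 4.36 in the first 2 panels, and Plagl1 at 2.45 in the third.

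Usp29, the neighbour of Peg3, had the same order of line means as Peg3. Its log2 CPM was 2.07 and 2.14 in melan-a, -0.04, -3.44 and -1.16 in 4C, from at most 6 reads, and 1.73, 2.77 and 2.96 in 4C11-. It was at 0 reads in all 3 libraries of 4C11+. Unlike Peg3, for which these differences did not pass the threshold, it was called lower in 4C than in melan-a (log2 difference -3.65, SE 0.85, adjusted p = 0.0129) and higher in 4C11- than in 4C (4.03, SE 0.76, adjusted p = 0.0221). The first of these calls was lost without either melan-a replicate and the second without 4C replicates 2 or 3 or 4C11- replicates 2 or 3, with adjusted p up to 0.0601 for the first and 0.0989 for the second. It was lower in 4C11+ than in 4C11-, with a log2 difference of -2.46 when set at the value at 3 reads, which is a bound (adjusted p = 0.000475). The Pearson r of Peg3 and Usp29 over 11 libraries was 0.81, and 0.69 for the deviations from the line means, with 4 lines behind these points.

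Genes measured within 1 Mb of the Peg3 start, a window chosen after the values were seen, numbered 12. Of these, Usp29 had at most 3 reads in each 4C11+ library and the other 11 exceeded this in at least 1. Such absence in 4C11+ held for 7.15% of all genes, so 1 of 12 is near the background. Clcn4, a chloride transporter gene, had mean log2 CPM values of 1.36, 0.21 and 1.30 in melan-a, 4C and 4C11- and of 6.24 in 4C11+. The zinc finger gene Zfp28 was at 2.85, 2.00 and 1.13 in these lines and at 5.10 in 4C11+. Zfp773 was low in both epithelial lines, at -0.68 in melan-a and -0.79 in 4C11+, against 3.84 in 4C and 3.57 in 4C11-. These neighbours are described without tests.

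Around Igf2, 4 of 21 genes within 1 Mb had at most 3 reads in each 4C11+ library, namely Muc5b, Syt8, Prr33 and Tnnt3, against 7.15% of all genes. All 4 had line means of 3.09 log2 CPM or less. Lsp1, a leukocyte-specific actin-binding protein gene, was at 7.30 and 7.64 in 4C and 4C11- and at -1.92 and -0.29 in melan-a and 4C11+, as Igf2 was low in these epithelial lines. Ctsd, which encodes cathepsin D, and Cd81 were at 9.73 and 8.81 in 4C11+. Around Igf2r, Peg10 and Impact, 0 of 13, 0 of 9 and 0 of 8 neighbours had at most 3 reads in each 4C11+ library, and around Mest and Plagl1 this was met by 1 of 25 and 2 of 13.

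**Figure D3:**
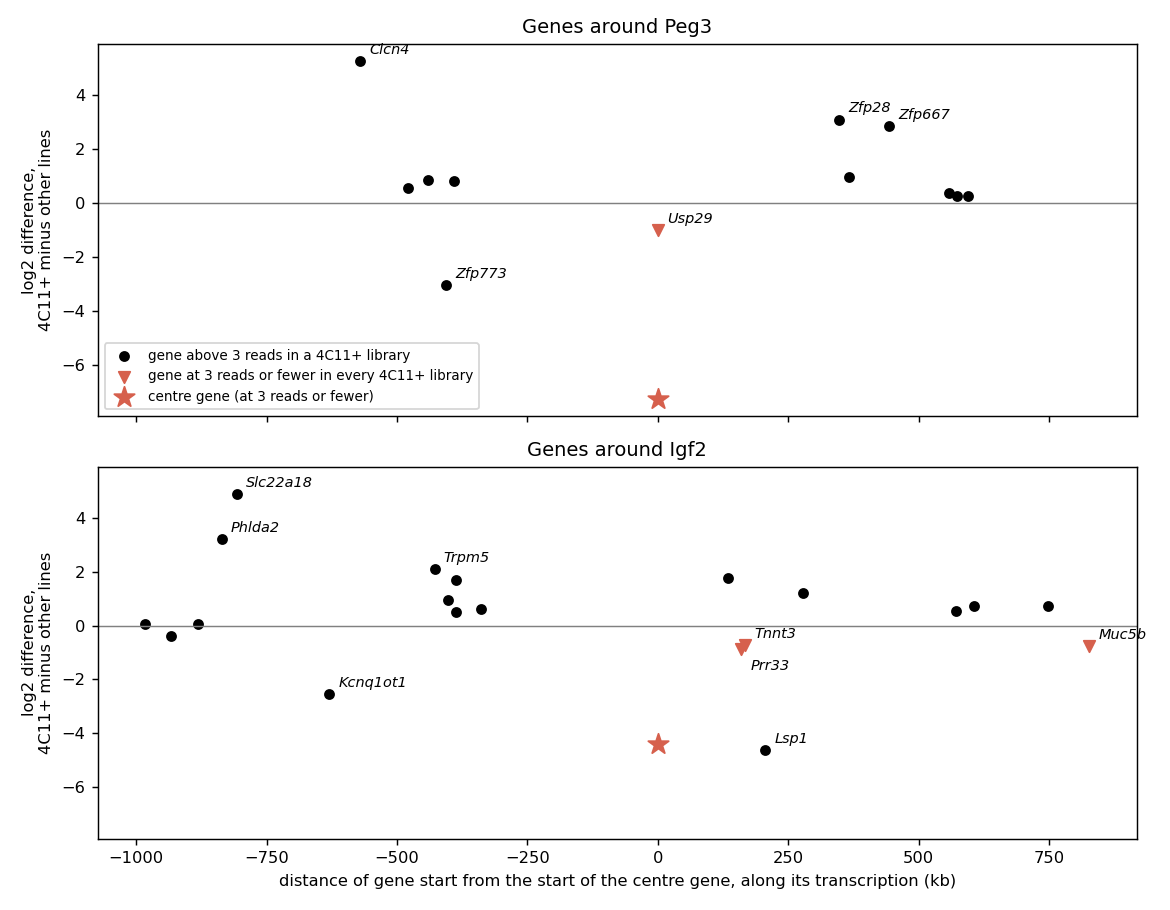
Genes within 1 Mb of the starts of Peg3 (top) and Igf2 (bottom), plotted by distance in kb along the direction of transcription against the log2 difference of 4C11+ from the mean of the other lines. Red marks had at most 3 reads in each 4C11+ library and are placed at the value at 3 reads, the star is the gene itself, and Syt8, for which no bound exists, is left out. Peg3 lies at -7.29 and Usp29 at -0.99, while Clcn4 lies at 5.28.

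The imprinted cluster on distal chromosome 7 that holds Igf2 also holds Kcnq1ot1, a paternally expressed antisense RNA, with the maternally expressed Phlda2, Slc22a18, Tspan32, Tssc4 and Cd81 near it. Kcnq1ot1 was at 6.44 and 7.56 log2 CPM in melan-a and between 6.60 and 8.59 in 4C. It was between 5.04 and 8.27 in 4C11- and between 4.34 and 5.35 in 4C11+, where it was lower than the mean of the other lines (log2 difference -2.55). Slc22a18, a transporter gene, was at 3.46, 3.32 and 3.48 in 4C11+ and at 3 reads or fewer in every library of 4C and 4C11-. In melan-a it was at 2.85 in replicate 2 and at 0 reads in replicate 3, so that these cultures did not agree. Slc22a18 was higher in 4C11+ than in 4C11- by a log2 bound of 4.99 (adjusted p = 0.00305). Phlda2, a placental growth inhibitor, was at 6 to 14 reads in the 4C11+ libraries. Tspan32, a tetraspanin gene, was at 4.92, 4.02 and 3.20 in 4C11- and at 8 reads or fewer in 4C and melan-a. It was thus higher in 4C11- than in 4C (log2 difference 4.12, SE 0.45, adjusted p = 0.000671). Osbpl5 and Nap1l4, also reported as maternally expressed, belong to this cluster too. Osbpl5 was lower in 4C11+ than the mean of the other lines (log2 difference -1.07, SE 0.33, adjusted p = 0.0277), a call held in 8 of 11 fits with 1 library left out. The line means of Nap1l4 lay between 7.29 and 7.55.

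Of the genes near Peg10 and Mest, 3 belong to the list of other imprinted genes. Sgce, an epsilon-sarcoglycan gene whose start lies 99 bases from that of Peg10, was at 5.85, 5.89 and 6.01 in 4C11+ and at 3.66 to 5.32 elsewhere, with a log2 difference of 1.14 from the mean of the other lines (SE 0.23, adjusted p = 0.00313). Ppp1r9a, which encodes neurabin and is maternally expressed in some tissues, was at 4.13, 4.51 and 5.91 in 4C11+ and at 8 reads or fewer in all other libraries. Its difference of 4C11+ from the mean of the other lines was 6.95 on the log2 scale (SE 0.63, adjusted p = 8.67e-06). The size of this difference is uncertain, because 4C had 0 reads and 4C11- at most 4. Outside 4C11+ the highest log2 CPM was 0.60, in melan-a. Copg2, a coatomer subunit gene that overlaps Mest by 912 bases on the opposite strand, was lower in the mesenchymal-like than in the epithelial lines, with a log2 difference of -1.18 (SE 0.14, adjusted p = 7.1e-05). Other neighbours within 1 Mb, which are described without a test, also differed in level. Podxl, a sialomucin gene on the Mest side, had mean log2 CPM values of 3.03 and 0.32 in the epithelial lines melan-a and 4C11+ and of 7.77 and 7.68 in the mesenchymal-like lines 4C and 4C11-. Casd1, a sialic acid acetyltransferase gene near Peg10, was at 6.34 in 4C11+, at 3.27 and 3.18 in melan-a and 4C11- and at -3.11 in 4C, and the dynein gene Dync1i1 was at 3.19 in 4C11+ and 0.30 or lower elsewhere.

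Of 55 other imprinted genes listed, 29 had a value. In 4C against melan-a, 4 of these were higher and 4 lower, which is 27.6% called, against 15.2% of all genes. In 4C11- against 4C, 2 were higher, Usp29 and Tspan32, and 0 lower, which is 6.90% against 1.67%. In 4C11+ against 4C11-, 7 were higher and 7 lower, which is 48.3% against 31.1%. In 4C11+ against melan-a, 6 were higher and 5 lower, which is 37.9% against 15.9%. The mesenchymal-like against the epithelial lines gave 6 and 4, which is 34.5% against 29.7%. Against the mean of the other lines, 9 were higher and 7 lower in 4C11+, which is 55.2% against 34%, with a median of -0.21 against 0.079 for all genes. The changed genes thus went both ways in each comparison with 4C11+. By reported parental copy, 5 of the 12 paternally expressed genes were lower and 3 higher in 4C11+ than the mean of the other lines, and 2 of the 17 maternally expressed genes were lower and 6 higher. The difference between these 2 groups was not tested.

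At most 3 reads in each 4C11+ library were found for 6 of the 29, which is 20.7%, and for 7.15% of all genes. They were Usp29, Mkrn3, Nespas, Slc38a4, Ddc and Atp10a. Of the 5 members other than Igf2 and Peg3, 0 were. Atp10a and Nespas were above 3 reads in every library of the other lines as well, a pattern met by 1.59% of all genes. Atp10a, a lipid flippase gene, was at 4.64 and 4.59 log2 CPM in melan-a, 5.62, 6.11 and 6.13 in 4C and 5.86, 5.88 and 5.92 in 4C11-. It was at 0 reads in all 4C11+ libraries, a log2 difference from 4C11- of -5.86 as a bound (adjusted p = 7.21e-09). Nespas, an antisense RNA of the Gnas cluster, was at 1.48 to 3.06 in the other libraries and at 0 reads in 4C11+. Nespas overlaps Gnas on the opposite strand, so its reads are uncertain. Slc38a4, an amino acid transporter gene, was at 2.85 to 3.66 in 4C and 4C11-, and the 2 melan-a libraries were at 11 and 1 reads. Mkrn3 had at most 14 reads in any library. Ddc had at most 19, and its lowest melan-a value, -2.58, is that of 0 reads in replicate 3, so it was near the limit of detection in other lines too. On the other side, Peg13 was at 4.33, 4.15 and 4.60 in 4C11+, above every other library, and higher in 4C11+ by 2.23 (SE 0.36, adjusted p = 0.00063). Inpp5f, an inositol phosphatase gene, was higher by 1.46 (SE 0.27, adjusted p = 0.00168).

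**Figure D4:**
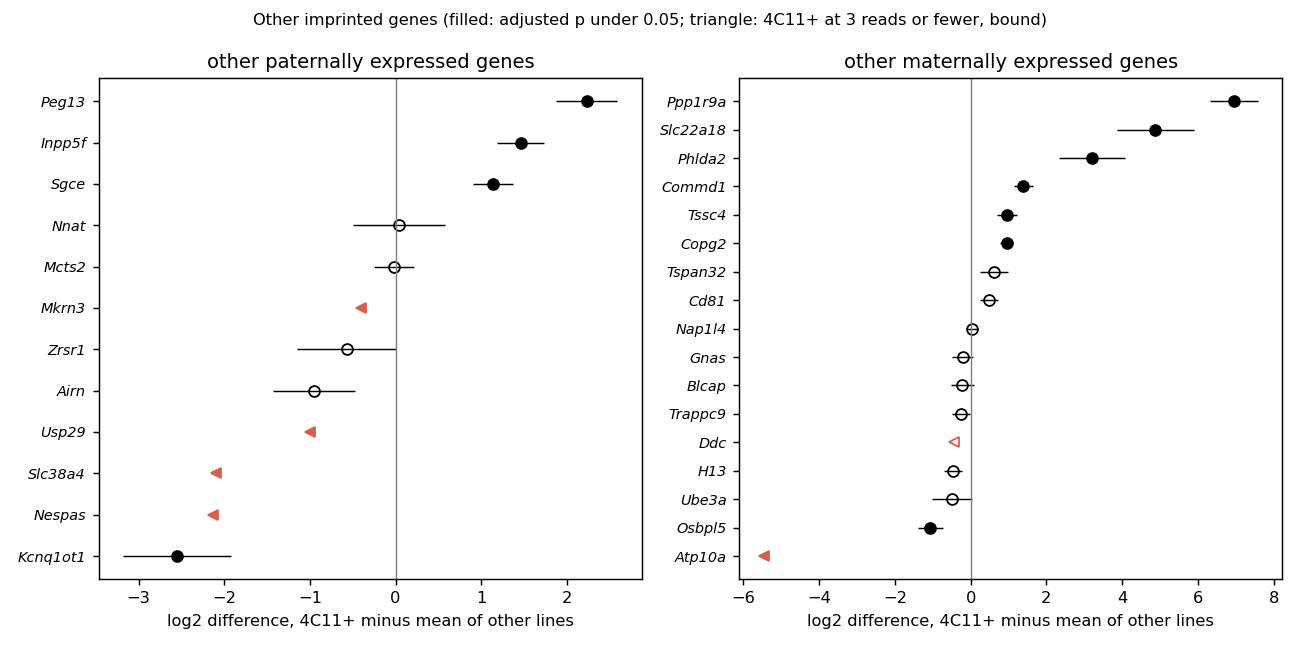
Log2 difference of 4C11+ from the mean of the other lines for the 29 other imprinted genes with a value, split by the parental copy reported as expressed. Circles are limma estimates ± SE, filled where the adjusted p was under 0.05, and red triangles are bounds for genes with at most 3 reads in each 4C11+ library. The 2 panels have different scales, and their ends are Peg13 at 2.23, Ppp1r9a at 6.95 and Atp10a at -5.46. The Ppp1r9a value rests on other lines with 8 reads or fewer.

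The IGF pathway has ligands, receptors, binding proteins that hold the ligands outside the cell, and RNA-binding proteins that carry Igf2 messenger RNA. Of 28 other genes of this pathway that were listed, 17 had a value. In 4C11+ against 4C11-, 3 were higher and 11 lower, which is 82.4% called against 31.1% of all genes, with a median log2 difference of -2.23 against 0.12 for all genes. In 4C against melan-a, 5 were higher and 0 lower, which is 29.4% against 15.2%. In 4C11- against 4C, the step at which Igf2 rose 20.5-fold, limma called 0 of 17, and 4 had an unadjusted p under 0.05. With 1.67% of all genes called at this step, a count of 0 among 17 does not set the list apart. In the mesenchymal-like against the epithelial lines, 10 were higher and 2 lower, which is 70.6% against 29.7%. In 4C11+ the numbers were 3 and 7 against melan-a, which is 58.8% against 15.9%, and 3 and 10 against the mean of the other lines, which is 76.5% against 34%.

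Igf1, the other ligand, was at 2.72, 1.78 and 2.25 log2 CPM in 4C and at 0.85, 2.41 and 3.50 in 4C11-, and at 0 reads in all libraries of melan-a and 4C11+. Igf1 was higher in 4C than in melan-a by a log2 bound of 2.65 (adjusted p = 0.000471). Igf1r, the signalling receptor for both ligands, was at 7.47 and 6.59 in melan-a. It was between 7.43 and 7.97 in 4C, between 7.69 and 7.82 in 4C11-, and at 5.58, 5.39 and 5.55 in 4C11+. The 4C11+ libraries were the lowest, with a log2 difference of -2.23 from 4C11- (SE 0.25, adjusted p = 4.12e-05), and the receptor RNA was still detected in each. M6pr, the smaller mannose 6-phosphate receptor that does not bind IGF2, went the other way, at 8.67, 8.59 and 8.52 in 4C11+ and 7.62, 7.27 and 7.19 in 4C11- (log2 difference 1.23, SE 0.19, adjusted p = 0.000455).

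Large differences were found among the binding proteins. Igfbp5 was at 8.12, 6.75 and 8.03 in 4C and 8.26, 8.55 and 8.39 in 4C11-, and at 0 reads in 4C11+. In melan-a it was at 5.82 in replicate 2 and 2.14 in replicate 3. It was lower in 4C11+ than in 4C11-, with a log2 difference of -8.38 as a bound (adjusted p = 6.17e-07). Igfbp6, which prefers IGF2 over IGF1, was at 7.83, 7.76 and 7.89 in 4C and 7.88, 7.88 and 6.92 in 4C11-, and at 2 reads or fewer in every library of melan-a and 4C11+. It was higher in the mesenchymal-like lines by a bound of 7.88 (adjusted p = 6.72e-09). Igfbp7 was also high in 4C and 4C11-, from 5.14 to 6.38, and at 0 reads in melan-a. Igfbp2 was between 7.58 and 8.92 in 4C and between 3.92 and 6.69 in 4C11-, and at 2 reads or fewer in 4C11+, while the 2 melan-a libraries were at 7.99 and 0.75. Of these 5 binding proteins Igfbp4 was the 1 that rose between 4C11- and 4C11+, at 7.92, 7.78 and 7.81 against 5.59, 4.53 and 4.08 in 4C11- (log2 difference 3.11, SE 0.62, adjusted p = 0.00275). The fibroblast markers with a value moved with Igfbp5, Igfbp6 and Igfbp7 over the lines, and their part was not tested.

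Among the RNA-binding proteins, Igf2bp1 was at 6.15, 6.46 and 5.50 in 4C11+ and 3.84, 2.57 and 3.60 in 4C11- (log2 difference 2.70, SE 0.36, adjusted p = 0.000187). Igf2bp2 went down at the same step, from 5.07, 4.56 and 5.02 to 2.24, 1.90 and 2.64 (log2 difference -2.62, SE 0.26, adjusted p = 1.8e-05). The adaptors Irs1 and Irs2 were at 3.97 to 4.48 and at 3.79 to 4.00 in 4C11+, below all libraries of the other lines. Stc2, which encodes a secreted inhibitor of IGFBP cleavage, was at 0 reads in 4C11+ and at 1.30 or higher elsewhere.

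**Figure D5:**
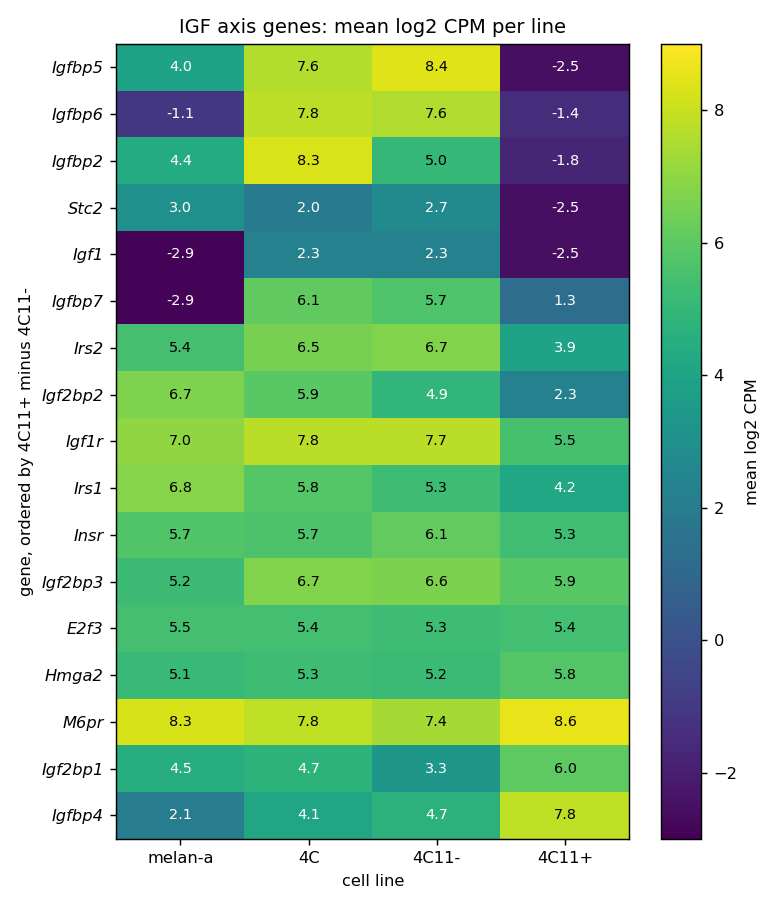
Mean log2 CPM per line of 17 IGF pathway genes with a value, ordered from the lowest to the highest difference of 4C11+ from 4C11-. Each cell prints the mean of 2 (melan-a) or 3 libraries and its colour follows the scale at the right. Igfbp5 at the top and Igfbp4 at the bottom mark the ends of the order.

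The listed regulators of imprints, such as DNA methyltransferases and the zinc finger proteins that keep methylation at imprinting control regions, form another list. Of 32 listed, 29 had a value. In 4C11+ against the mean of the other lines, 2 were higher and 4 lower, which is 20.7% called against 34% of all genes. In 4C11+ against 4C11- the counts were also 2 and 4, against 31.1% of all genes. In 4C11+ against melan-a they were 2 and 0, which is 6.90% against 15.9%, and in the mesenchymal-like against the epithelial lines 3 and 2, which is 17.2% against 29.7%. In 4C against melan-a 1 was higher and 0 lower, which is 3.45% against 15.2%. In 4C11- against 4C limma called 0 of 29, with 1.67% of all genes called, and 2 had an unadjusted p under 0.05. In the 5 comparisons with a call, the share called was thus below that of all genes. Zfp57, which binds methylated imprinting control regions, was at 5.18 or above in 4C and at 5.38, 5.23 and 5.57 in 4C11-. It was at 1.60, 1.58 and 1.20 in 4C11+ and at 2.80 and -1.42 in melan-a, where replicate 3 had 1 read. It was higher in 4C than in melan-a by 4.93 (SE 0.87, adjusted p = 0.0023) and lower in 4C11+ than in 4C11-, a log2 difference of -3.94 (SE 0.78, adjusted p = 0.00264). Dnmt3a, a de novo DNA methyltransferase, was at 7.05, 6.64 and 7.63 in 4C11+ and at 5.97 or lower in all other libraries, a log2 difference of 1.48 from the mean of the other lines (SE 0.23, adjusted p = 0.000567). Mbd3, a subunit of a chromatin remodelling complex, was higher in 4C11+ by 1.38 in the same comparison (SE 0.22, adjusted p = 0.000664). Among the lower regulators there were Zfp57 at -2.44 (SE 0.65, adjusted p = 0.0128), Smc1a at -1.30 (SE 0.40, adjusted p = 0.0261) and Ehmt1 at -1.09 (SE 0.28, adjusted p = 0.0116). The calls of Smc1a and Ehmt1 each held in 9 of 11 fits with 1 library left out. DNA methylation was not measured in these samples.

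The genes whose values over the 11 libraries were most like those of Igf2, by Pearson r, were Ms4a4d (0.98), Ston2 (0.98), Spo11 (0.97), Sox18 (0.97) and Dram1 (0.96). Ms4a4d had line means of -2.24, 2.29, 5.71 and -2.49 log2 CPM in melan-a, 4C, 4C11- and 4C11+. For Peg3 they were Runx3 (0.98), BC039966 (0.97), Srl (0.97), Rhox5 (0.97) and Gm12609 (0.97). Rhox5, an X-linked homeobox gene, was at 8.45, 7.83 and 8.21 in melan-a, 4C and 4C11- and at -0.22 in 4C11+. After subtraction of the line means the r with Igf2 fell to between -0.16 and 0.58 for the first 5 genes, and that with Peg3 to between -0.37 and 0.42 for the others. The likeness therefore rests on 4 lines, and nothing about shared control follows from it.

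Within lines some members varied together. The deviations of Plagl1 and Impact from their line means had a Pearson r of 0.88 over the 11 libraries, those of Peg3 and Impact 0.74, and those of Mest and Peg10 0.70. In 4C11- replicate 1, Peg3, Plagl1, Peg10 and Impact were all at their lowest within the line, and that library stood apart from the others of its line across all genes. Mest and Peg10 were both lower in melan-a replicate 2 than in replicate 3. These r values describe libraries that share depth and culture, and most of the spread behind them comes from few libraries.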

How the data were processed

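According to the study's methods, the authors trimmed adaptors, aligned reads with STAR to the mouse genome (Ensembl annotation), counted genes with Rsubread, kept genes with 1 CPM or more in 4 or more libraries and ran voom. The submitters' processing notes name Trimmomatic and GRCm38. The authors' deposited values were thus taken as log2 CPM. The 11 libraries share 1 highest value, as after quantile normalization between libraries, a step not named in the sources used here. Of the 14272 genes, 136 were under that minimum in the libraries used here, and 24 had no symbol. Melan-a replicate 1 was not analysed here.

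The values were used as deposited. Low values lie on steps of single reads, which limits the precision of low levels. The value at 3 reads and a nominal depth (at the step of 40 reads, 3.50 to 7.42 M reads) were taken from these steps. The shared highest value means that this number is not a reliable depth. Lines were compared in limma 3.58.1 under R 4.3.3 (1 mean per line, all 11 libraries, mean-variance trend, Benjamini-Hochberg over all genes, adjusted p under 0.05), checked on simulated data. Tables were handled in Python 3.11.15 with pandas 2.3.3. Gene positions and exon lengths are from GENCODE M21. Replicate numbers were checked for pairing. The deviations of same-numbered libraries correlated at -0.23 to 0.39, above 0.1 in 8 of 15 pairs. Libraries with different numbers were not set beside them, so the check could not decide whether same-numbered libraries were paired. They were not taken as pairs in the main fit. The members and the gene lists were chosen with earlier results of these data known. The text names all members, genes with a value in the same imprinted cluster as a member and, for likeness, the 5 genes with the highest r. From each list it names some, but not all, of the 3 genes per direction and comparison with the largest called difference. Commd1, H13, Blcap, Nnat and Ctcfl are among those left out above. Other genes named, such as neighbours within 1 Mb, genes without detectable RNA in 4C11+ and other IGF pathway genes, were chosen after their values were seen. Alternatives covered normalization, a filter on low values, the variance model, the lines in the fit, a replicate block and each library left out.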

Additional observations from a re-analysis of the deposited data

How the results depend on the processing

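Over the alternatives, 688 of 742 values of single members were counted as unchanged, 28 lost the threshold, 12 gained it and 14 changed sign. For tested values, unchanged means the same direction and side of the threshold. The 742 also hold the untested values of Igf2 and Peg3 in each comparison that includes 4C11+. These counted as unchanged if they kept their direction and moved by at most 1 residual SD, and all of them did. The 688 is therefore not a count of tests alone. The calls of Igf2 in 4C against melan-a and in 4C11- against 4C held in every fit, with adjusted p up to 0.00416 and 0.0072. The sign changes all came from leaving out 1 library, and concerned differences that passed the threshold in no fit. Their ranges were -0.49 to 0.20 for Igf2r and -0.52 to 0.93 for Peg10 in 4C against melan-a, -0.30 to 0.92 for Impact and -0.57 to 0.0927 for Peg10 in 4C11+ against 4C11-, and -0.18 to 0.54 for Peg10 and -0.18 to 0.43 for Impact in the mesenchymal-like against the epithelial lines.

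Leaving out 1 library gave 1 to 3 members called in 4C against melan-a, 1 to 3 in 4C11- against 4C, 0 to 2 in 4C11+ against melan-a, 1 to 2 between the phenotypes and 0 to 3 in 4C11+ against the mean of the other lines, of which 0 without 4C11+ replicate 1. For the other imprinted genes the ranges were 3 to 8 in 4C against melan-a and 1 to 2 in 4C11- against 4C. For all genes they were 93 to 320 in 4C11- against 4C, the lowest without 4C replicate 2, 1089 to 2864 in 4C11+ against melan-a and 3001 to 5718 in 4C11+ against the mean of the other lines, both lowest without 4C11+ replicate 1. Without the mean-variance trend 0 members were called in 4C11+ against melan-a and 1 against the mean of the other lines. With only the compared lines in the fit, 2 other imprinted genes were called in 4C against melan-a and 1 in 4C11- against 4C, with 143 of all genes in the last, and 0 members and 1446 of all genes in 4C11+ against melan-a. With genes of mean log2 CPM under 1 left out, the other imprinted genes called were 1 in 4C11- against 4C, 9 in 4C11+ against 4C11-, 6 in 4C11+ against melan-a and 10 against the mean of the other lines, since fewer of them were tested, and 125 of all genes were called in 4C11- against 4C. The cause of the other shifts was not tested.

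Whether same-numbered libraries share more than a number is not known. With the replicate block, 2 members were called in 4C11+ against melan-a and 2 between the phenotypes. Mest was added in both, at adjusted p = 0.0487 and adjusted p = 0.0367. The call of Igf2r in 4C11+ against the mean of the other lines was lost (-0.85, adjusted p = 0.0636). Depth limits levels near 3 reads, where differences are only bounded.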
